A study of Mus musculus with 12 samples.

Results

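The 9 genes described here are the integrin subunits Itga4, Itgal, Itgam, Itgax, Itga6, Itgb1, Itgb2 and Itgb7 and the adhesion molecule Vcam1. They are 9 of 56735 gene names in the count table and were chosen by name. Itga4 and Itgal served as leukocyte integrins thought to mark cells of bone marrow origin, and the rest as subunits that resident macrophages and leukocytes share. All 9 passed the filter on low counts, as did 13724 genes in all.

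RNA was sequenced in bulk from CD206+ macrophages of the leptomeninges and perivascular spaces, termed subdural CNS-associated macrophages (sdCAMs), of mouse brains freed of the choroid plexuses. All mice were Mrc1CreERT2/CreERT2:R26tdT/tdT and received tamoxifen between 5 and 9 weeks of age. This labels with tdTomato (tdT) only cells that express Mrc1, the gene of CD206, at that time, and their progeny. After 4 weeks, mice aged 10 ± 3 weeks were gavaged for 7 days with vehicle or with 200 mg per kg of BLZ945, an inhibitor of the CSF-1 receptor that depletes brain macrophages, and cells were sorted 8 weeks later. The 3 groups of 4 libraries were vehicle tdT+, BLZ945 tdT+ and BLZ945 tdT-. The mice were labelled F1, F2, M1 and M2. Libraries of BLZ945 tdT+ and tdT- cells with the same label came from the same mouse, whereas vehicle mice were other animals. In this model a tdT- cell that expresses Mrc1 either entered or began to express it after tamoxifen, or is one in which recombination failed. The tdT- libraries may also hold RNA of cells of other types, whose markers are given below.

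Integrins are pairs of 1 alpha and 1 beta subunit that link the cell surface to matrix or to other cells. The beta2 family, restricted to leukocytes, pairs Itgb2 with Itgal (LFA-1), Itgam (CD11b, Mac-1) or Itgax (CD11c), and binds ICAMs and complement fragments. Itga4 pairs with Itgb1 to form VLA-4, which binds VCAM-1 and fibronectin, or with Itgb7 to bind MAdCAM-1. Itga6 pairs with Itgb1 or Itgb4 to bind laminins. Monocytes use VLA-4 and LFA-1 to arrest on activated endothelium, where Vcam1 and Icam1 are induced. Vcam1 is also made by some tissue macrophages.

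Itgam and Itgax are neighbours on the genome, and their reference promoters are shown beside that of Itga4 because both were higher in every tdT- library than in every tdT+ library, whereas Itga4 was not. RefSeq promoters (mouse GRCm38.p6) matched 5 of the 9 genes. The 250 bases before the start are printed 5′ to 3′, all 3 on the plus strand, with matches to the PU.1 core GAGGAA and to the AP-1 motif TGANTCA on either strand in capitals.
Itgam, chr7:128062390-128062639: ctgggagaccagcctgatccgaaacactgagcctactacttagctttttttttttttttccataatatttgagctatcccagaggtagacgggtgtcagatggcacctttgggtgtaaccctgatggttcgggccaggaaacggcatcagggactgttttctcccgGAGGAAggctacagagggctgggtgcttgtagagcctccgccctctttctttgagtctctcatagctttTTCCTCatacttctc
Itgax, chr7:128129300-128129549: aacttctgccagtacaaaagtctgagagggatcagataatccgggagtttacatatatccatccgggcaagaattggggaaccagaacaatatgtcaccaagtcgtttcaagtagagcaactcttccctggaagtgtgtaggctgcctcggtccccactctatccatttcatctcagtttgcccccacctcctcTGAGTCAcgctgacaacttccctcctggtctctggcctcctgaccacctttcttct
Itga4, chr2:79255176-79255425: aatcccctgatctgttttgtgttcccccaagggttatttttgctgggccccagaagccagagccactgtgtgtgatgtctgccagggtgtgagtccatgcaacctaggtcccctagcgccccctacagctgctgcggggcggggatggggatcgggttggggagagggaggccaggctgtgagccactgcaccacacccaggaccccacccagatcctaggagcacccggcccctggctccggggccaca
The Itgam sequence holds GAGGAA once on the plus strand, 84 to 79 bases before the start, and once on the minus strand, 15 to 10 bases before it. The Itgax sequence holds TGANTCA 56 to 50 bases before the start. The Itga4 sequence holds neither. GAGGAA was found in 2 of the 5 matched genes, the other being Itgb1 (9 to 4 bases before the start), and TGANTCA in 1 of the 5. None of Itgam, Itgb1 and Itgax was called in tdT- against BLZ945 tdT+ cells. Among 32841 promoter sequences of this length, 23.3% held GAGGAA and 6.75% held TGANTCA. The TATA box letters TATAAA (12.4% of promoters) and the NF-kB consensus (3.9%) were found in none of the 5 matched genes. These matches describe letters and were not tied to binding or expression.

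Libraries held 19969308 to 23395058 counts each. The row for tdTomato held 0 counts in all 12 libraries, so the reporter could not be used to check the sort. The CAM markers Mrc1, Pf4, Cbr2, Ms4a7, Cd163, Lyve1 and F13a1 were counted in every library, and all 7 were called lower in tdT- than in BLZ945 tdT+ cells. Their summed level was 196493 to 223588 normalised counts in vehicle tdT+, 220650 to 281881 in BLZ945 tdT+ and 77357 to 128603 in tdT- libraries. All 6 microglia markers were called higher in tdT- than in either tdT+ group, and their sum rose from 37768 to 51480 in vehicle and 55248 to 62425 in BLZ945 tdT+ to 120633 to 275502 in tdT- libraries. The tdT- library F2 stood apart with 422747 normalised counts of 6 neutrophil markers, against at most 69.4 in the other 11 libraries, and with 51211 counts of 6 monocyte markers. Results are therefore also given without it. The monocyte markers summed to 6650, 5524.5 and 3076 in the tdT- libraries F1, M1 and M2. They summed to 901 to 1981 in BLZ945 tdT+ and 1549 to 3885 in vehicle tdT+ libraries. Of 4 monocyte markers tested, 2 were called higher in tdT- than in BLZ945 tdT+ cells, against 2.94% of all genes tested. How far marker RNA of other cells contributed to the levels below was not tested, and in bulk RNA more cells of a type and more RNA per cell cannot be told apart.

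Values are normalised counts, that is, counts divided by the DESeq2 size factor of the library, in the order F1, F2, M1 and M2. Log2 fold changes are shrunken with apeglm and given ± SE unless called unshrunken. A gene is called where its Benjamini-Hochberg adjusted p over all genes is at most 0.05 in DESeq2. The edgeR quasi-likelihood adjusted p is given beside it, because edgeR called fewer genes here. All p-values measure spread between mice within this experiment. The comparisons of tdT- with BLZ945 tdT+ and with vehicle tdT+ cells share the tdT- libraries and are not independent.

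Comparing tdT- with tdT+ cells of the same BLZ945-treated mice asks whether the 9 genes differ between unlabelled and labelled cells in a shared environment. In tdT- cells Vcam1 was 3.56-fold lower and Itgb2 1.40-fold higher (unshrunken), and no other gene was called. Thus 1 of 9 was called higher, against 2.94% of all genes tested, and 1 of 9 lower, against 3.61%. The groups did not overlap for 4 of 9 (Itgam, Itgax, Itgb2 and Vcam1), against 9.35% of all genes. The median unshrunken log2 fold change was 0.39 over the 9 genes and 0.0036 over all genes. edgeR called 1 of 9, Vcam1.

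**Figure D1:**
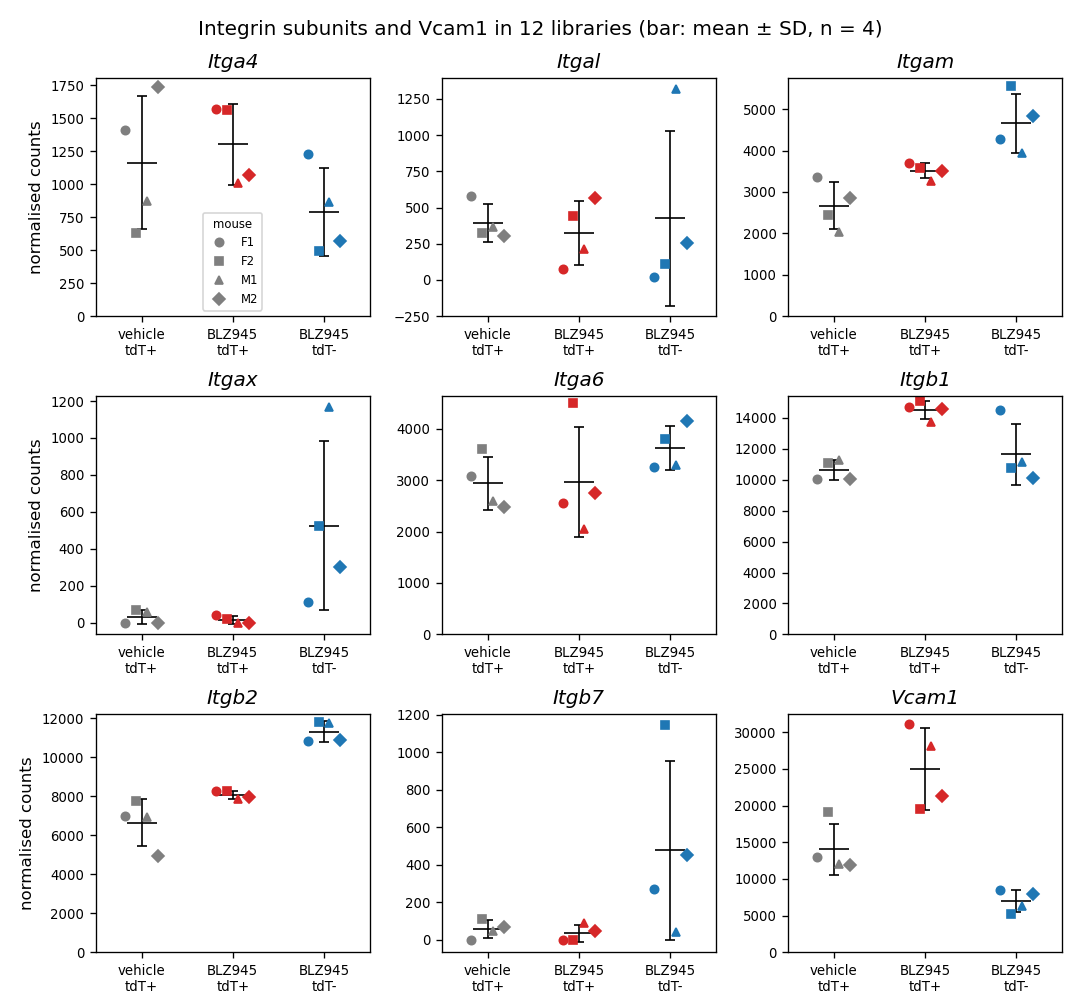
Normalised counts (linear axes) of the 9 genes in 12 libraries, by group on the x axis. Symbols mark the mouse label, the long dash the mean and the bar the SD of 4 libraries. Vcam1 was highest in BLZ945 tdT+ and lowest in tdT- cells, Itgb2 was highest in tdT- cells, and Itgal and Itgb7 spread widely within tdT- cells, where 1 library held 1316 and 1145 normalised counts, respectively.

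Itga4 encodes the alpha4 chain of VLA-4 (GRCm39 chromosome 2, 79085770 to 79163467, plus strand). It measured 1414, 631, 874 and 1739 normalised counts in vehicle tdT+, 1574, 1564, 1011 and 1068 in BLZ945 tdT+ and 1229, 494, 867 and 571 in tdT- cells. The means were 1164 ± 504, 1304 ± 307 and 790 ± 334 (SD, n = 4), and all 3 groups overlapped. Although Itga4 was chosen as a mark of bone marrow origin, it was lower in tdT- than in tdT+ cells in 4 of 4 mice, by 0.22 to 1.66 on the log2 scale. The unshrunken log2 fold change was -0.72 (95% CI -1.45 to 0.0014), and the adjusted p was 0.310 in DESeq2 and 0.366 in edgeR. Exons of Cerkl on the opposite strand overlap Itga4, and Cerkl reached at most 45.1 normalised counts in any library.

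Itgal encodes the alphaL chain of LFA-1 (chromosome 7, 126895432 to 126934310, plus strand). It measured 582, 321, 364 and 305 normalised counts in vehicle tdT+ cells and 78.2, 439, 216 and 563 in BLZ945 tdT+ cells. The tdT- libraries held 17.7, 113, 1316 and 254, so both the lowest and the highest of the 12 values were in this group. Within mice Itgal was lower in tdT- cells of F1, F2 and M2 and higher in those of M1. The unshrunken log2 fold change of tdT- against BLZ945 tdT+ was 0.39 (95% CI -1.32 to 2.10, adjusted p = 0.933 in DESeq2), an interval that holds more than 2-fold changes in both directions. Without the tdT- library M1 the shrunken value was -0.19 (DESeq2 adjusted p = 0.401). The T and NK cell markers Cd3e, Cd3d, Cd3g, Lck, Ncr1 and Gzma, which belong to cells rich in Itgal, all had 0 counts in the 4 tdT- libraries, where 3 counts correspond to at most 3.16 normalised counts. The 5 B cell markers summed to 918 to 1294 in vehicle tdT+, 251 to 440 in BLZ945 tdT+ and 633 to 1022 in tdT- libraries. Of 3 tested, 1 was called higher in tdT- than in BLZ945 tdT+ cells, against 2.94% of all genes tested. Whether RNA of other leukocytes contributed to Itgal was not tested. Neither gene taken as a mark of bone marrow origin therefore separated tdT- from tdT+ cells.

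Itgb2, the shared beta2 chain (chromosome 10, 77366086 to 77401542, plus strand), measured 6974, 7753, 6950 and 4932 normalised counts in vehicle tdT+ cells. It measured 8247, 8261, 7843 and 7960 in BLZ945 tdT+ and 10825, 11784, 11768 and 10887 in tdT- cells. The 3 groups did not overlap and were ordered vehicle tdT+, BLZ945 tdT+, tdT-. The rise from BLZ945 tdT+ to tdT- cells was 0.45 ± 0.13 (adjusted p = 0.00301 in DESeq2 and 0.0645 in edgeR) and was seen in 4 of 4 mice, by 0.39 to 0.59. From vehicle tdT+ to tdT- it was 0.73 ± 0.13 (adjusted p = 7.99e-08 in DESeq2, 0.00387 in edgeR). The neighbouring groups vehicle tdT+ and BLZ945 tdT+ did not pass the test (0.20 ± 0.13, adjusted p = 0.463 in DESeq2). Without the tdT- library F2, tdT- against BLZ945 tdT+ gave 0.42 (adjusted p = 0.0142 in DESeq2).

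Itgam encodes CD11b, the alpha chain of the complement receptor Mac-1 (chromosome 7, 127661812 to 127717663, plus strand). It measured 3361, 2438, 2046 and 2851 normalised counts in vehicle tdT+ cells and 3687, 3583, 3271 and 3500 in BLZ945 tdT+ cells. The tdT- libraries held 4287, 5563, 3948 and 4830, all above both tdT+ groups. Itgam was called higher in tdT- than in vehicle tdT+ cells (0.75 ± 0.17, adjusted p = 8.76e-05 in DESeq2 and 0.0135 in edgeR). Against BLZ945 tdT+ cells it was higher in 4 of 4 mice but was not called (0.34 ± 0.16, adjusted p = 0.143 in DESeq2). The gate may bear on Itgam and Itgax, because other sorts in the study required CD11b and left out CD11c+ cells. Whether these steps were applied to these libraries is not given in the sources used here. Exons of the predicted gene Gm49368, on the same strand, overlap Itgam, and it reached at most 24.5 normalised counts.

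Itgax encodes CD11c, known from dendritic cells and activated microglia (chromosome 7, 127728719 to 127749829, plus strand). It had 0, 66.4, 58.0 and 0 normalised counts in vehicle tdT+ and 42.3, 17.5, 0 and 0 in BLZ945 tdT+ cells, against 114, 522, 1167 and 299 in tdT- cells. Each tdT- library was above all 8 tdT+ libraries. The unshrunken log2 fold change over BLZ945 tdT+ was 5.13 with a wide 95% CI of 1.13 to 9.14, and the gene was not called (adjusted p = 0.125 in DESeq2, 0.203 in edgeR). With the mouse as a replicate block on the 8 libraries, DESeq2 called it (4.99, adjusted p = 2.48e-05), while edgeR with the same block did not (unshrunken 6.27, adjusted p = 0.345). In all, 7 of 20 alternatives called it. Dendritic cell markers did not move with Itgax as a group. Of 4 tested, 1 was called higher and 1 lower in tdT- than in BLZ945 tdT+ cells, and their sum was 985 to 5680 normalised counts in tdT- and 1164 to 3740 in BLZ945 tdT+ libraries. Xcr1 had 0 counts in all libraries but the tdT- library F2, which held 30.1. Cd209a measured 754 to 4947.5 in tdT- and 599 to 3014 in BLZ945 tdT+ libraries. Ccr7 measured 1046, 0, 0 and 451 in tdT- libraries and 0 in all BLZ945 tdT+ libraries. Zbtb46 was lower in tdT- libraries (102 to 251.5) than in BLZ945 tdT+ libraries (479 to 726). The sum of microglia markers was 120633, 128880, 275502 and 185398 normalised counts in the tdT- libraries. M1 was thus highest in both, but F2 held more Itgax than M2 and fewer microglia marker counts. A link between the 2 was not tested.

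Per length, on the TPM scale (counts divided by exon length and scaled to the same total in each library), Itgam made up most of the alpha subunits that can pair with Itgb2. It took 87.1 ± 4.19% of the summed TPM of Itgal, Itgam, Itgax and Itgad in vehicle tdT+, 92.0 ± 5.04% in BLZ945 tdT+ and 85.3 ± 14.6% in tdT- cells (SD, n = 4). The share of Itgax was 1.22 ± 1.41%, 0.403 ± 0.551% and 9.28 ± 7.42%, respectively. Its values in the tdT- libraries were 2.69, 8.81, 19.8 and 5.87%, above the highest tdT+ value of 2.49%. The share of Itgal ran from 7.56 to 11.7% in vehicle tdT+, from 1.58 to 11% in BLZ945 tdT+ and from 0.307 to 16.3% in tdT- cells. Itgad had 0 counts in all tdT- libraries. The summed TPM of Itgal, Itgam and Itgax over that of Itgb2 was alike in the 3 groups, at 0.284 ± 0.0853, 0.284 ± 0.0144 and 0.296 ± 0.0335.

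**Figure D2:**
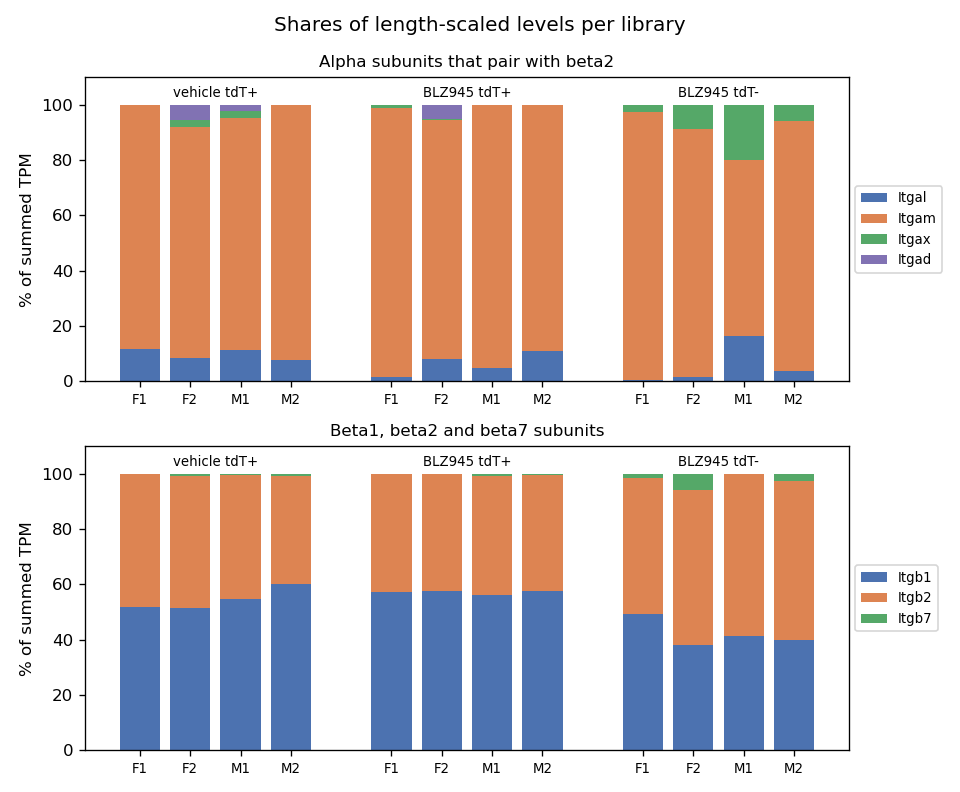
Shares of summed TPM per library (y axis, percent; x axis, mouse label within each group). The upper panel shows the alpha subunits that pair with beta2 and the lower panel the beta subunits. Itgax reached 2.69 to 19.8% in tdT- libraries and at most 2.49% in tdT+ libraries, and Itgb1 made up 38.1 to 49.4% of the beta subunits in tdT- and 51.3 to 60.1% in tdT+ libraries.

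Itgb1 is the beta chain shared by VLA-4 and the laminin and collagen receptors (chromosome 8, 129412135 to 129459681, plus strand). It measured 10046, 11074, 11265 and 10066 normalised counts in vehicle tdT+ and 14688, 15106, 13706 and 14546 in BLZ945 tdT+ cells. These groups did not overlap, and Itgb1 was called higher after BLZ945 (0.40 ± 0.12, adjusted p = 0.00916 in DESeq2), but not in edgeR (adjusted p = 0.309). The DESeq2 call was lost without vehicle F1 (adjusted p = 0.0574), vehicle M2 (0.0625), BLZ945 tdT+ F1 (0.0525) or BLZ945 tdT+ F2 (0.0586). The tdT- libraries held 14517, 10748, 11163 and 10116. Of these, F1 lay among the BLZ945 tdT+ values and the other 3 within the range of the vehicle values. The difference of tdT- from BLZ945 tdT+ cells was -0.29 ± 0.11 (DESeq2 adjusted p = 0.0621). It was called once F1 was left out, with -0.43 (DESeq2 adjusted p = 3.41e-06).

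On the TPM scale Itgb1 made up 54.4 ± 4.01% of Itgb1, Itgb2 and Itgb7 in vehicle tdT+ and 57.2 ± 0.638% in BLZ945 tdT+ cells, against 42.2 ± 4.97% in tdT- cells (SD, n = 4). The share in tdT- cells ran from 38.1 to 49.4% and that in tdT+ cells from 51.3 to 60.1%. The ratio of Itgb2 to Itgb1 TPM was accordingly 0.836 ± 0.131, 0.745 ± 0.0164 and 1.33 ± 0.222. These ratios are descriptions and were not tested.

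Itga6, the laminin-binding alpha6 chain (chromosome 2, 71575960 to 71688760, plus strand), measured 3075, 3602, 2588 and 2482 normalised counts in vehicle tdT+ cells. It measured 2559, 4497, 2049 and 2748 in BLZ945 tdT+ and 3246, 3790, 3288 and 4141 in tdT- cells. All groups overlapped and no comparison was called. The unshrunken log2 fold change of tdT- against BLZ945 tdT+ was 0.29 (95% CI -0.16 to 0.73, DESeq2 adjusted p = 0.654). It was called only when BLZ945 tdT+ F2, the highest library, was left out (shrunken 0.48, DESeq2 adjusted p = 0.0411).

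Itgb7 is the partner of Itga4 in the gut-homing receptor and of Itgae in epithelium-bound lymphocytes (chromosome 15, 102124430 to 102140379, minus strand). It had 0, 111.9, 49.3 and 68.5 normalised counts in vehicle tdT+ and 0, 0, 92.3 and 46.1 in BLZ945 tdT+ cells. The tdT- libraries held 273, 1145, 39.0 and 451, with 3 of 4 above all tdT+ libraries and M1 within their range. The largest value was in F2, the library with neutrophil marker RNA. The unshrunken log2 fold change over BLZ945 tdT+ was 3.79 (95% CI 0.86 to 6.71), not called (adjusted p = 0.119 in DESeq2 and 0.342 in edgeR). The replicate block gave an adjusted p of 0.00191 in DESeq2, with a shrunken log2 fold change of only 0.080, and 0.560 in edgeR. Without F2 the DESeq2 adjusted p was 0.420. Itgae reached at most 39.5 normalised counts in any library.

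Vcam1, the ligand of VLA-4 (chromosome 3, 115903598 to 115923337, minus strand), showed the largest shrunken change of the called genes among the 9. It measured 13051, 19150, 12061 and 11907 normalised counts in vehicle tdT+ cells and 31114, 19466, 28153 and 21240 in BLZ945 tdT+ cells. In tdT- cells it measured 8455, 5278, 6381 and 7952. No groups overlapped, with tdT- below vehicle tdT+ below BLZ945 tdT+, although the highest vehicle library (19150) lay just under the lowest BLZ945 tdT+ library (19466). The fall from BLZ945 tdT+ to tdT- cells was -1.79 ± 0.20 (adjusted p = 2.75e-18 in DESeq2, 0.000413 in edgeR), and it was lower in 4 of 4 mice, by 1.42 to 2.14. It was called under every alternative tried. Endothelium is the cell type best known for Vcam1. Its 6 markers summed to 1.05 to 91.3 normalised counts in BLZ945 tdT+ and 6.59 to 312.9 in tdT- libraries. Cdh5 had 0 counts in all 8 BLZ945 libraries. Kdr measured 68.1, 0, 57.4 and 0 in BLZ945 tdT+ and 248, 6.59, 179 and 202 in tdT- libraries. Whether endothelial RNA contributed to Vcam1 was not tested.

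**Figure D3:**
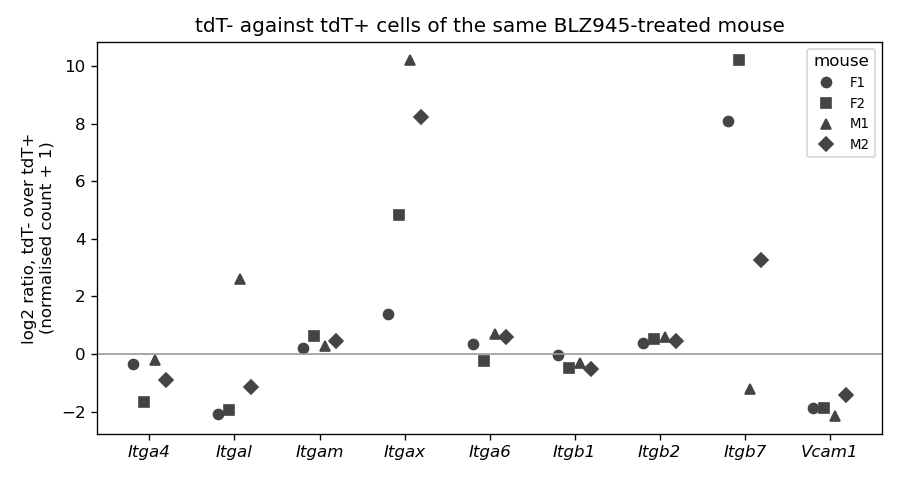
Log2 ratio of normalised counts (plus 1) in tdT- over tdT+ cells of each BLZ945-treated mouse (y axis) for the 9 genes (x axis); symbols mark the mouse. Vcam1 lay between -2.14 and -1.42 and Itgb2 between 0.39 and 0.59 in the 4 mice, whereas Itgal and Itgb7 took both signs.

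Comparing BLZ945 tdT+ with vehicle tdT+ cells asks what the labelled cells retained 8 weeks after depletion. Vcam1 and Itgb1, which are the ligand and the beta chain of VLA-4, were the only genes of the 9 called. Thus 2 of 9 were called higher, against 0.484% of all genes tested, and 0 of 9 lower, against 0.477%. The groups did not overlap for 3 of 9 (Itgb1, Itgb2 and Vcam1), against 6.72% of all genes. Vcam1 rose by 0.73 ± 0.21 (adjusted p = 0.00391 in DESeq2), from a mean of 14042 ± 3442 to 24993 ± 5540 normalised counts (SD, n = 4). edgeR called 0 of 9, with 4 at an unadjusted p under 0.05, and gave Vcam1 an adjusted p of 0.270. The DESeq2 call of Vcam1 was lost without BLZ945 tdT+ F1 (0.57, adjusted p = 0.0556). The median unshrunken log2 fold change was 0.16 over the 9 genes and 0.030 over all genes.

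Comparing tdT- with vehicle tdT+ cells sets the unlabelled cells against undisturbed resident cells, which differ also in treatment. Itgb2 and Itgam were called higher and Vcam1 lower, and edgeR called the same 3. Thus 2 of 9 were called higher, against 3.29% of all genes tested, and 1 of 9 lower, against 3.51%. The groups did not overlap for 4 of 9 (Itgam, Itgax, Itgb2 and Vcam1), against 9.7% of all genes. Vcam1 fell by 0.94 ± 0.20 on the log2 scale (adjusted p = 1.59e-05 in DESeq2 and 0.0130 in edgeR). Vcam1 was thus above vehicle in BLZ945 tdT+ cells and below it in tdT- cells of the same mice. Without the tdT- library F2 all 3 calls remained, with Itgb2 at 0.71, Itgam at 0.64 and Vcam1 at -0.82. For Itgax the unshrunken log2 fold change was 4.08 (95% CI 0.079 to 8.08, DESeq2 adjusted p = 0.292). DESeq2 called it with the 8 libraries of this comparison alone (shrunken 2.83, adjusted p = 0.0366). The median unshrunken log2 fold change was 0.30 over the 9 genes and 0.031 over all genes.

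**Figure D4:**
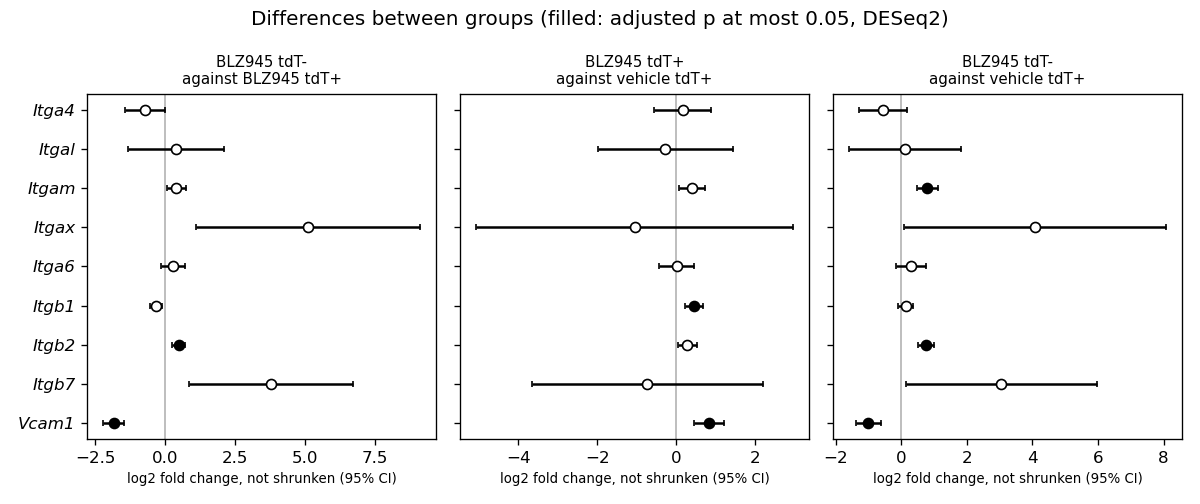
Unshrunken log2 fold changes (x axes, which differ in range) with 95% confidence intervals for the 9 genes in the 3 comparisons; filled points had a DESeq2 adjusted p of at most 0.05. Vcam1 was called in all 3 comparisons, Itgb2 in both with tdT- cells, and the intervals of Itgal, Itgax and Itgb7 were widest.

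Among all 27 integrin subunits Itgb5, a partner of alphav that binds vitronectin, had the highest level per length in each group, at 507 ± 76.5, 593 ± 43.6 and 969 ± 206.3 TPM in vehicle tdT+, BLZ945 tdT+ and tdT- cells (SD, n = 4). Itgb1 came next and then Itgb2 in both tdT+ groups, and their order was reversed in tdT- cells, at 446 ± 16.7 TPM for Itgb2 and 344 ± 65.2 TPM for Itgb1. Itgam (69.9 to 111.7 TPM) and Itga6 (42.3 to 47.6 TPM) followed in each group. Itga4 measured 10.9 ± 4.66, 12.3 ± 2.75 and 6.84 ± 3.01 TPM and Itgal 7.82 ± 2.33, 6.49 ± 4.28 and 7.67 ± 10.8 TPM in the same order of groups.

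The other 19 integrin subunits came from a list, and 8 were tested. In tdT- against BLZ945 tdT+ cells 2 were called higher (Itgb5 and Itgb3) and 0 lower, against 2.94% and 3.61% of all genes tested. The median unshrunken log2 fold change was 0.11, against 0.0036 over all genes. Itgb5 rose from 15905 to 28635 normalised counts (0.80 ± 0.15, adjusted p = 1.36e-06 in DESeq2 and 0.00941 in edgeR). It was highest in the tdT- library M1, at 38354, where the microglia markers were highest too, and a link was not tested. Itgb3, another beta chain that pairs with alphav, had 0 counts in all BLZ945 tdT+ libraries and 57.4, 125, 74.9 and 119 normalised counts in tdT- libraries. This was at least 32.0-fold higher, against a floor of 3 counts in each library (DESeq2 adjusted p = 1.89e-05, edgeR 0.0427). In vehicle tdT+ cells it measured 112.3, 14.9, 130.7 and 0, and it was called lower in BLZ945 tdT+ cells by DESeq2 (adjusted p = 0.000486) but not by edgeR (0.270). There the shrunken log2 fold change was only -0.023. Itgb3 passed the filter through tdT- and vehicle tdT+ libraries alone, so neither of its calls is read as a difference. Of the 11 untested subunits Itgb2l, a beta2-like gene of neutrophils, was counted in the tdT- library F2 alone, at 908 normalised counts. Against vehicle tdT+ cells Itgb5 alone of the 8 was called in tdT- cells (1.03 ± 0.15, adjusted p = 2.52e-10 in DESeq2, 0.0020 in edgeR). Of all genes tested in that comparison, DESeq2 called 3.29% higher and 3.51% lower. Without F2 the calls of Itgb5 and Itgb3 remained. However, the shrunken log2 fold change of Itgb3 over BLZ945 tdT+ cells was then 0.12 in place of 9.7. Itgad, at 0 in the tdT- libraries, then passed the filter only through 1 BLZ945 tdT+ and 2 vehicle tdT+ libraries. DESeq2 called it lower against both, but the shrunken log2 fold changes were only -0.019 and -0.023. Because the filter was passed through the tdT+ libraries alone, these calls are not read as a difference.

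Of 25 counter-receptors, ligands and other molecules of extravasation 14 were tested, and 4 were called higher and 0 lower in tdT- than in BLZ945 tdT+ cells, against 2.94% and 3.61% of all genes tested. The median unshrunken log2 fold change was 0.84, against 0.0036 over all genes. Selplg, the P-selectin ligand PSGL-1, rose by 1.90 ± 0.21 (adjusted p = 3.53e-18 in DESeq2 and 0.00056 in edgeR). F11r (JAM-A), a junctional ligand of LFA-1, rose by 1.80 ± 0.21 (adjusted p = 3.07e-16 in DESeq2 and 0.00056 in edgeR). Spp1 (osteopontin), a ligand of alphav and alpha4 integrins, rose by 3.23 ± 0.90 (adjusted p = 0.000504 in DESeq2, 0.0311 in edgeR). Jam2, a ligand of VLA-4, rose by 1.99 ± 0.66 (adjusted p = 0.00327 in DESeq2, 0.0725 in edgeR). Selplg, F11r and Spp1 were highest in the tdT- library M1, at 59075, 18970 and 5970 normalised counts. The microglia markers were highest there too, and a link was not tested.

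In tdT- against vehicle tdT+ cells, where 3.29% of all genes tested were called higher, the same 4 genes were called higher. The rise was 2.46 for Selplg, 1.97 for F11r, 3.26 for Jam2 and 2.06 for Spp1. Without F2 these 4 stayed called in both comparisons (DESeq2 adjusted p at most 0.0354). Icam1, the main ligand of LFA-1, measured 1378 ± 301, 1198 ± 214 and 1918 ± 469 normalised counts in vehicle tdT+, BLZ945 tdT+ and tdT- cells (SD, n = 4) and was not called, although without the library F2 it was called higher in tdT- than in BLZ945 tdT+ cells (0.66, DESeq2 adjusted p = 0.0258).

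Of 30 genes that activate integrins or link them to actin 27 were tested, and 4 were called higher and 2 lower in tdT- than in BLZ945 tdT+ cells, where the shares of all genes tested were 2.94% and 3.61%. The median unshrunken log2 fold change was 0.11 in the list and 0.0036 over all genes. Parvg, a leukocyte parvin that binds integrin-linked kinase, rose by 2.17 ± 0.43 (adjusted p = 2.15e-06 in DESeq2, 0.00837 in edgeR). Apbb1ip (RIAM), which brings talin to integrins downstream of Rap1, rose by 0.66 ± 0.19 (adjusted p = 0.00197 in DESeq2, 0.0364 in edgeR). Cytip and the focal adhesion kinase family member Ptk2b were called higher by DESeq2 alone. Tln2, a paralogue of the talin Tln1, fell by 1.12 ± 0.37 on the log2 scale (adjusted p = 0.00445 in DESeq2, 0.072 in edgeR). Parva was called lower by DESeq2 alone and had 0 counts in all tdT- libraries and in BLZ945 tdT+ F2 and M2. It passed the filter through tdT+ libraries alone, and its shrunken log2 fold change was only -0.053. This call, kept without the tdT- library F2 (-0.047, DESeq2 adjusted p = 0.0261), is therefore not read as a difference. Without the library F2 the list gave 3 higher and 3 lower, since the call of Cytip was lost (DESeq2 adjusted p = 0.111) and Tln1, the main talin of leukocytes, was called lower (-0.57, DESeq2 adjusted p = 0.00703).

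Against vehicle tdT+ cells 7 of these 27 genes were called higher and 1 lower in tdT- cells, against 3.29% and 3.51% of all genes tested. Of these, edgeR called 3 (Parvg, Apbb1ip and Rassf5). Rassf5 (RAPL), a Rap1 effector that binds the alphaL chain, rose by 0.84 ± 0.23 (adjusted p = 0.000998 in DESeq2, 0.0292 in edgeR). Without F2 the calls of Cytip and Skap2 were lost (DESeq2 adjusted p = 0.0642 and 0.141). In BLZ945 tdT+ against vehicle tdT+ cells 0 of 27 were called by either tool, with 3 at an unadjusted p under 0.05 in each. Of all genes tested in this comparison, DESeq2 called 0.484% higher and 0.477% lower.

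The 5 genes whose log2 levels followed Itga4 most closely over the 12 libraries, among 9325 genes that averaged 100 normalised counts or more, were Sqstm1, Zbp1, Tmem37, Arhgef5 and Mmd (Pearson's r 0.880, 0.859, 0.853, 0.837 and 0.828). For Itgal they were Coa8, Pcdhgb2, Mrps33, Plscr3 and Wdr53 (r 0.913, 0.888, 0.874, 0.849 and 0.849). None of the 9 genes was among them, and r between Itga4 and Itgal was -0.041. All values come from the same 12 libraries and carry no test. With Spearman's rank correlation 1 of the 5 genes for Itga4 and 0 of the 5 for Itgal kept their places.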

How the data were processed

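Per the file headers, the authors made the deposited counts with featureCounts 2.0.6 from exons grouped by gene name, with a filtered GENCODE M33 annotation (GRCm39) extended by a tdTomato entry. Strand was ignored and multi-mapping reads were left out. The values are whole read counts, not normalised and not pooled. The submitters' processing notes also name STAR 2.7.11a, bcl2fastq 2.20 and DESeq2 1.46.0. Per the labels, cDNA was amplified by PCR from about 500 pg of RNA with a SMART-Seq kit, so counts are not independent molecules and detection floors cover counting error only. Each library held 19969308 to 23395058 counts, and a floor of 3 counts corresponds to 2.60 to 3.16 normalised counts. Where exons of genes on opposite strands overlap, their reads cannot be told apart. A vehicle column that carries the library number of mouse M2 but the label M1 was assigned by its library number, and 0 columns were left over.

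In R 4.3.3, genes with at least 10 counts in at least 4 libraries were kept, and groups were compared with DESeq2 1.42.0 (two-sided Wald test, group as the only term, 12 libraries, Benjamini-Hochberg adjustment over all genes) with log2 fold changes shrunken by apeglm 1.24.0. TPM was computed from the deposited counts and exon lengths. Both DESeq2 and edgeR were tested on simulated data. Alternatives were edgeR 4.0.16, TMM factors, no filter, unshrunken values, the 8 libraries of a comparison alone, the letter F or M as a covariate, the mouse label as a replicate block, a threshold on fold change, and each library left out. The edgeR fit with the block and the counts of the gene lists without the tdT- library F2 were added after seeing the data. Pairing of BLZ945 libraries comes from the mouse: deviations of tdT- and tdT+ libraries of a mouse correlated by 0.106 to 0.264 over genes that averaged 1000 normalised counts or more, and by -0.0046 to 0.035 over all genes. Over the 18 pairs of replicates the chi-square of the counts was at least 48.7 per degree of freedom, far above sampling noise.

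The 9 genes, the gene lists, the marker lists and the tests were chosen with earlier results of these data known. All 9 genes are named, other genes of the lists mostly where called, and the 5 genes most like Itga4 and Itgal by Pearson's r, leaving out predicted genes. Itgae, Itgad, Icam1, Tln1, Itgb2l, Cd209a, Ccr7, Zbtb46, Kdr and markers that were at or near 0 were named after their values were seen. The result of 1 gene of the list of extravasation molecules is not reported here.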

Additional observations from a re-analysis of the deposited data

Results flagged for a closer look

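Vcam1 in the vehicle tdT+ library F2 measured 19150 normalised counts, far from the other 3 vehicle libraries (11907 to 13051), with a gap of 0.842 of the range of the group. Among 27 groups of 4 libraries it was the only such value, and chance, at about 1 in 20 groups, gives 1.35 such groups. Without this library the log2 fold change of Vcam1 in BLZ945 tdT+ over vehicle tdT+ cells was 0.94 (DESeq2 adjusted p = 1.54e-05) in place of 0.73, and that of tdT- against vehicle tdT+ cells was -0.74 (DESeq2 adjusted p = 0.000554) in place of -0.94. For none of the 9 genes did the difference between groups depend on the letter of the mouse label in edgeR's interaction test (lowest adjusted p 0.588). At an unadjusted p under 0.05 this test singled out Itgb7 and Itgal in 3 of 27 tests.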

How the results depend on the processing

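Vcam1 in tdT- against BLZ945 tdT+ cells and Vcam1, Itgb2 and Itgam in tdT- against vehicle tdT+ cells kept their calls under each alternative without a fold threshold. In tdT- against BLZ945 tdT+ cells, 2 of 9 genes were called, 1 with edgeR, 4 with the replicate block in DESeq2, 1 with the block in edgeR, 1 with a log2 fold change of at least 1, and 2 to 4 with each library left out. In BLZ945 tdT+ against vehicle tdT+ cells, 2 were called, 0 with edgeR, 1 with the replicate block (where the label joins different mice), 0 with the fold threshold, and 0 to 2 with each library left out. In tdT- against vehicle tdT+ cells, 3 were called, 4 with the 8 libraries alone and 4 with the replicate block (Itgax added in both, with DESeq2 adjusted p = 0.0366 and 3.44e-06), and 0 with the fold threshold. Direction reversed for uncalled genes near 0. For Itgal in tdT- against BLZ945 tdT+ cells the log2 fold change was -0.0040 with the letter as a covariate and -0.10 with the replicate block. The block in edgeR gave an unshrunken -0.88. The shrunken value was -0.19 (without tdT- M1) to 0.13 with each library left out. In tdT- against vehicle tdT+ cells it was -0.051 with the letter, -0.093 with the replicate block and -0.27 (without tdT- M1) to 0.088 with each library left out, and in BLZ945 tdT+ against vehicle tdT+ cells -0.011 to 0.0009 (without BLZ945 tdT+ F1). In the last comparison Itga6 was -0.016 with the block and -0.105 (without BLZ945 tdT+ F2) to 0.034 with each library left out, and Itga4 was -0.0054 (without vehicle F2) to 0.033. The share of Itgal among the beta2 partners in vehicle tdT+ cells was 12.4% in place of 9.76% without scaling by gene length. With Spearman's correlation 1 of the 5 genes most like Itga4 and 0 of those most like Itgal were retained. The cause of these changes was not tested. Of 522 alternative values of single genes, 484 kept their direction and their side of the threshold. Zero counts in some tdT+ libraries limit the fold changes of Itgax and Itgb7, and the cause of these zeros was not tested.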
